A study of Homo sapiens with 2 samples.

Results

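The genes described here are 10 transcripts of growth factor signalling in liver cancer cells: the ERBB receptors EGFR, ERBB2 and ERBB3, the HGF receptor MET, the fibroblast growth factor receptors FGFR1 to FGFR4, the co-receptor KLB and the ligand FGF19. They were chosen by name and not by their values, though with earlier results of these data known. All 10 were found among the 26257 gene names present in both libraries. RNA was sequenced from PLC cells (a line from human liver cancer, labelled as wild type) that carried the lentiviral empty vector (EV), and from PLC cells made to overexpress PRSS35, a secreted serine protease, from the same lentiviral vector. The study's methods state that stable cells were selected with puromycin, and the labels give no further treatment. Each condition had 1 library, so no difference has a replicate check, no p-value is given, and the conditions cannot be told apart from the 2 cultures they were grown in.

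Receptor tyrosine kinases bind a ligand outside the cell, pair up, and phosphorylate adaptors that start the RAS-ERK and PI3K-AKT chains. ERBB3 has a weak kinase and signals by pairing with EGFR or ERBB2, and ERBB2 has no known ligand of its own. FGFR4 is the main FGF receptor of hepatocytes, where it needs KLB to respond to FGF19, the intestinal hormone that switches off bile acid synthesis, and FGF19 is gained with its neighbours on the long arm of chromosome 11 in some liver cancers.

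Values are FPKM, fragments scaled by transcript length and by library size, so levels of different genes can be set side by side. The interval given with each value is the one that Cufflinks deposited beside it, or a combination of these where several rows shared a name. It takes in the error of counting and assigning fragments, not that between cultures. The log2 change is that of FPKM + 1, PRSS35 over EV, which makes the changes of low genes look smaller. Ratios are plain FPKM ratios with a 95% interval propagated from the same bounds. A gene is called expressed if the mean of its 2 FPKM values is 1 or more, and 11118 names were. A value listed at 0 can be a failed estimate: CBX3, a chromatin protein of most cells, had 25.95 FPKM in EV and is listed at 0 in PRSS35 cells. Zeros are therefore given as listed, not as absence of a transcript.

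The labels were checked first. The FPKM of PRSS35 was 0.643 (interval 0.445 to 0.841) in EV and 1835.5 (interval 1759 to 1912) in PRSS35 cells. The median log2 change of expressed genes was 0.06, and a change of 2-fold or more on that FPKM + 1 scale was seen upwards in 2.73% and downwards in 2.48% of them. Of the hepatocyte markers listed, 7 of 8 were expressed, among them SERPINA1, APOA1, AFP and HNF4A. The summed level of the hepatocyte markers was 3188 FPKM in EV and 4826 in PRSS35 cells, mostly from SERPINA1, at 2528 and 4239 FPKM. Of the 7, 4 had an interval wholly higher in PRSS35 cells and 1 wholly lower, against 25.2% and 15.5% of expressed genes. Albumin (ALB) was low, at 4.05 FPKM in EV and 5.21 in PRSS35 cells. TTR was little above the cutoff, at 1.56 and 1.61 FPKM, and FGB was under 1 FPKM in both. Markers of other cells were mostly under 1 FPKM or listed at 0. All 5 endothelial markers were under 1 FPKM, with a summed level of 0.0373 in EV and 0.0307 in PRSS35. Of 6 fibroblast or stellate cell markers COL3A1, LUM and DCN were listed at 0 in both libraries, PDGFRB was the one expressed, and the sum was 1.75 and 2.03 FPKM. The leukocyte markers PTPRC and CD3E were listed at 0. LYZ, at 94.0 and 104 FPKM, and CD68, at 297 and 278 FPKM on a locus joined with MPDU1, made up nearly all of the leukocyte sum of 391 and 382 FPKM.

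Members of a receptor family resemble each other, so it was checked how far their transcripts share bases. In the canonical GENCODE transcripts on GRCh37, none of the 3044 windows of 50 bases in FGFR4 was found in any transcript of FGFR1, FGFR2 or FGFR3, and 0 were shared for each other FGFR and for EGFR, ERBB2 and ERBB3 within their family. The read length is not given in the sources used here. The longest run common to FGFR3 and FGFR4 has 31 bases and lies in exon 14 of both, in the part that encodes the kinase domain. The run is given here together with its flanking bases, since these are the receptors with the highest levels. On the coding (plus) strand, run and flanks lie at chr4:1807778-1807828 for FGFR3 and chr5:176523058-176523108 for FGFR4. Capitals mark the shared run, and the flanking bases in lower case already differ between the genes.
FGFR3: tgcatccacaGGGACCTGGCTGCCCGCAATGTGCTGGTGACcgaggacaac
FGFR4: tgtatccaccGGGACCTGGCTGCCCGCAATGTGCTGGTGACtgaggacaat
Among the ERBB receptors, the longest run common to EGFR and ERBB2 has 23 bases. It lies in exon 23 of both genes, at chr7:55266532-55266554 and chr17:37882082-37882104 on the plus strand, again marked in capitals. The last flanking bases come from exon 24.
EGFR: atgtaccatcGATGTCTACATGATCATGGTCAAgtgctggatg
ERBB2: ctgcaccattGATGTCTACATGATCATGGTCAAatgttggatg

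FGFR4 was by far the highest of the 10 transcripts in these cells. The gene spans 176513906 to 176525145 on chromosome 5 of GRCh37, on the plus strand, and its canonical transcript has 18 exons and 3093 bases. Its FPKM was 203 (interval 196.5 to 210.3) in EV and 236 (interval 228 to 244) in PRSS35 cells, above 92.1% and 93.5% of expressed genes. FGFR3, on chromosome 4 from 1795020 to 1810599, came next with 28.9 FPKM (interval 27.7 to 30.2) in EV and 35.4 (interval 34.0 to 36.8) in PRSS35 cells. FGFR4 was thus 7.03 times as high as FGFR3 in EV and 6.67 times in PRSS35 cells. FGFR1, the receptor more typical of mesenchymal cells, had 6.82 FPKM (interval 6.38 to 7.26) in EV and 7.13 (interval 6.70 to 7.56) in PRSS35 cells. FGFR2 was the lowest, with 0.0127 FPKM (interval 0 to 0.105) in EV, while it is listed at 0 in PRSS35 cells. Of the summed FPKM of the FGFR genes, FGFR4 held 85.1% in EV and 84.7% in PRSS35 cells, FGFR3 12.1% and 12.7%, and FGFR1 2.85% and 2.56%.

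The co-receptor and the hormone of FGFR4 were low beside it. KLB, on chromosome 4 from 39408550 to 39453153, had 3.08 FPKM (interval 2.82 to 3.34) in EV and 3.35 (interval 3.03 to 3.67) in PRSS35 cells, so that FGFR4 was 66.1 and 70.5 times as high. The locus overlaps that of WDR19, which had at most 0.561 FPKM. FGF19, on chromosome 11 from 69513006 to 69518790 on the minus strand, had 0.171 FPKM (interval 0.0605 to 0.281) in EV and 0.102 (interval 0.0188 to 0.186) in PRSS35 cells, values whose bounds imply about 9.6 and 6.0 fragments. FGF19 was thus low in both libraries, and the intervals overlap. Its ratio of 0.599 has an interval from 0.216 to 1.66, so neither a decrease nor an increase was detectable at this depth.

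The 3 ERBB receptors lay close together. EGFR, on chromosome 7 from 55086710 to 55279321, had 16.3 FPKM (interval 15.4 to 17.2) in EV and 19.9 (interval 18.9 to 21.0) in PRSS35 cells. ERBB2, on chromosome 17 from 37844167 to 37886679, had 14.7 FPKM (interval 13.8 to 15.6) in EV and 15.3 (interval 14.4 to 16.3) in PRSS35 cells. ERBB3, on chromosome 12 from 56470583 to 56497289, had 13.4 FPKM (interval 12.6 to 14.2) in EV and 18.3 (interval 17.3 to 19.3) in PRSS35 cells. ERBB3 stood below ERBB2 in EV, at 0.913 of its level with overlapping intervals, and above it in PRSS35 cells, at 1.19 times its level with intervals apart. EGFR-AS1, an antisense transcript inside EGFR, is listed at 0 in both libraries. MET, on chromosome 7 from 116312250 to 116438431, was low, with 1.07 FPKM (interval 0.912 to 1.22) in EV and 1.25 (interval 1.08 to 1.42) in PRSS35 cells, and EGFR was 15.3 and 15.9 times as high.

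The order of levels was therefore nearly the same in the libraries: FGFR4, FGFR3, the ERBB receptors, FGFR1, KLB, MET, FGF19 and FGFR2. In EV the intervals of EGFR and ERBB2, of ERBB2 and ERBB3, and of FGF19 and FGFR2 overlapped, and all other neighbours in this order were apart. In PRSS35 cells EGFR and ERBB3 overlapped and the other neighbours were apart, although FGFR2, listed at 0, has an interval without width there. By the pattern over both libraries, the expressed genes nearest to FGFR4 were BAG6 (203 and 237 FPKM), EBP (204 and 234 FPKM) and CSAG1 (201 and 238 FPKM), with Euclidean distances of at most 0.0232 in log2(FPKM + 1). With 2 libraries such nearness says only that the levels are alike.

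**Figure D1:**
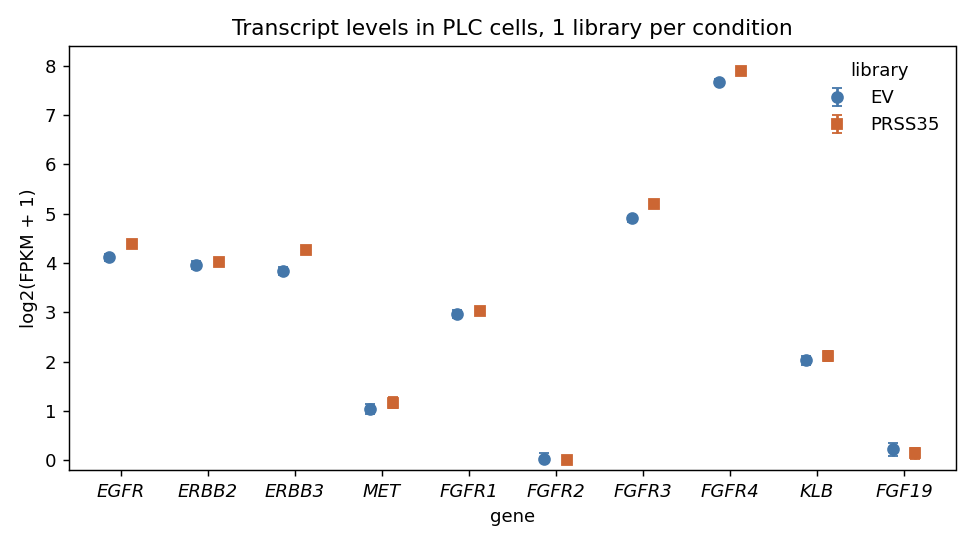
FPKM of the 10 genes as log2(FPKM + 1) on the y axis, in EV (circles) and PRSS35 (squares) cells, 1 library each, with bars for the deposited Cufflinks interval, which is often narrower than the symbol. FGFR4 lies far above the other genes in both libraries, and FGFR2 and FGF19 lie near 0.

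The comparison of PRSS35 with EV cells asks whether these receptors differ at the transcript level once PRSS35 is overexpressed. None of the 8 expressed members differed by 2-fold, where 2.73% of expressed genes were higher and 2.48% lower by as much. All 8 had a higher value in PRSS35 cells, as did 60.2% of all expressed genes, and ERBB2 and FGFR1 were at or below 0 (log2 of at least -0.01) once changes were centred on the median gene or scaled by the upper quartile. The median log2 change was 0.17 over the 8 members and 0.06 over all expressed genes. For 4 of the 8, ERBB3, FGFR3, EGFR and FGFR4, the interval in PRSS35 cells lay wholly above that in EV. Among all expressed genes this was so for 25.2%, and 15.5% lay wholly below. Narrow intervals separate more easily at high levels, and where the mean FPKM was 10 or higher it was 30.3% above and 22.3% below, against 4 of 5 members at that level. Such counts cover error within a library and say nothing of variation between cultures.

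ERBB3 had the largest difference of the 8 expressed members, with a ratio of 1.37 (interval 1.26 to 1.48) and a log2 change of 0.42, at percentile 91.1 of expressed genes. FGFR3 had a ratio of 1.23 (interval 1.16 to 1.30), EGFR of 1.22 (interval 1.13 to 1.32) and FGFR4 of 1.16 (interval 1.11 to 1.22), at percentiles 82.2, 81.4 and 74.6. The other expressed members had intervals that include 1. MET had a ratio of 1.18 (interval 0.968 to 1.43), KLB of 1.09 (interval 0.960 to 1.23), ERBB2 of 1.05 (interval 0.962 to 1.14) and FGFR1 of 1.05 (interval 0.959 to 1.14), and all 4 intervals also hold the median ratio of expressed genes, 1.05.

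**Figure D2:**
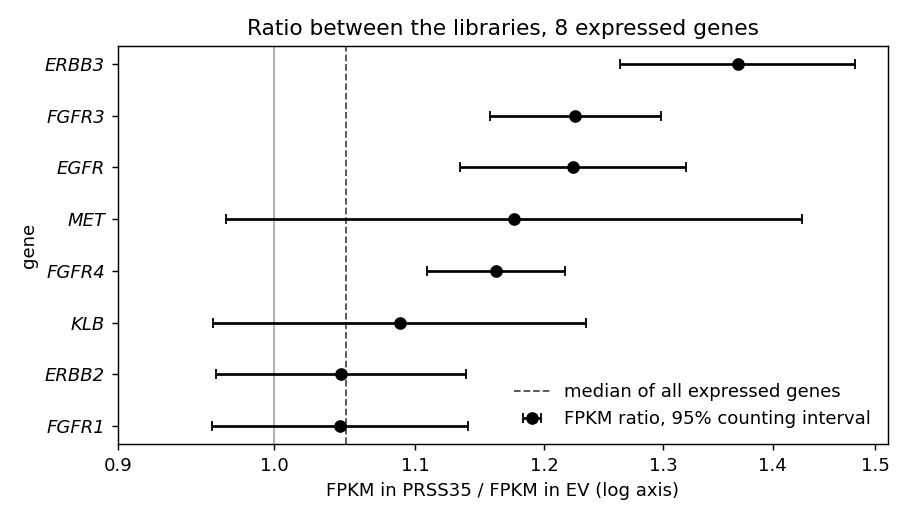
FPKM in PRSS35 over FPKM in EV on a log axis for the 8 expressed genes, with bars for the 95% interval propagated from the deposited bounds (1 library per condition, counting error only). ERBB3, FGFR3, EGFR and FGFR4 lie to the right of the dashed median of all expressed genes with their whole interval, and the intervals of MET, KLB, ERBB2 and FGFR1 include it.

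Within the ERBB family the differences were unequal. The ratio of ERBB3 was 1.31 times that of ERBB2 (interval 1.16 to 1.47), and that of EGFR was 1.17 times that of ERBB2 (interval 1.04 to 1.31). ERBB2 therefore made up 33.1% of the summed ERBB level in EV and 28.6% in PRSS35 cells, and ERBB3 30.2% and 34.1%. Within the FGFR family, the ratio of FGFR3 was 1.17 times that of FGFR1 (interval 1.06 to 1.30) and 1.05 times that of FGFR4 (interval 0.979 to 1.14), the latter not distinguishable at this depth.

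Cufflinks assembled loci in each library separately, so the same gene can be measured on an assembled locus in 1 library and on the annotated one in the other. Of the 10 members, 7 had the same kind of locus in both libraries, among them EGFR, FGFR3 and FGFR4. ERBB3 was assembled in EV only and kept its annotation in PRSS35 cells, while MET and KLB were assembled in PRSS35 cells only. Expressed genes above 0 in both libraries that were assembled in EV only had a median log2 change of 0.02, and 16.5% of these 1047 genes were separated upwards, against 24.4% of the 6376 genes assembled in both. The 1115 genes assembled in PRSS35 cells only, the class of MET and KLB, had a median of 0.16, and 37.9% were separated upwards. The part of assembly in the difference of ERBB3 was not tested. The bounds of KLB imply about 546 fragments in EV and 441 in PRSS35 cells, although its FPKM was higher in PRSS35 cells. Those of ERBB3 imply about 1133 and 1327 fragments and those of FGFR4 about 3452 and 3617, smaller differences than in FPKM. For EGFR (about 1196 and 1471) and FGFR3 (about 2106 and 2542) the differences were much as in FPKM.

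**Figure D3:**
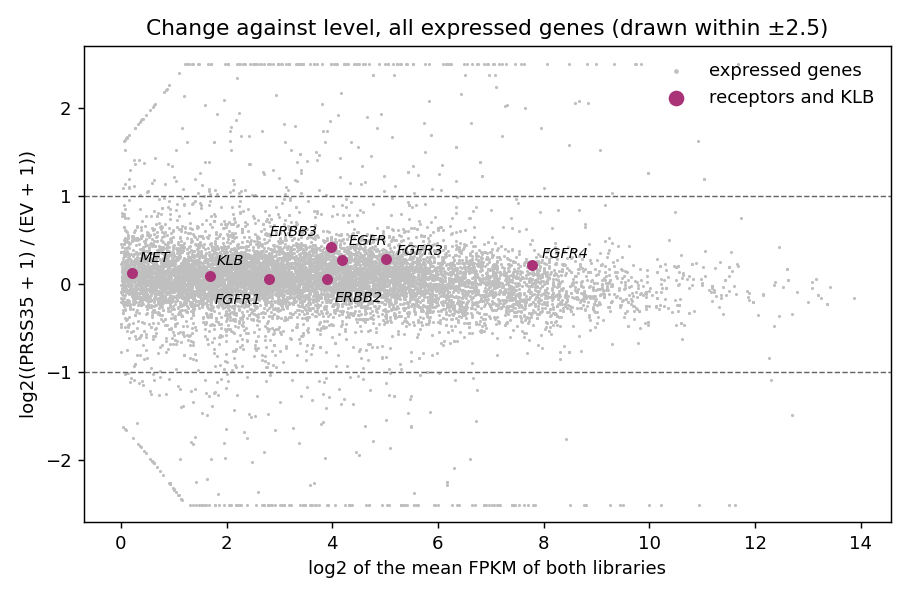
Log2 change (y axis, pseudocount of 1 FPKM, drawn within ±2.5) against the log2 of the mean FPKM (x axis) for the 11118 expressed genes in grey and the 8 expressed members in purple; dashed lines mark 2-fold. The members lie inside the band of most genes, with ERBB3 uppermost at 0.42.

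Most ligands of these receptors were under 1 FPKM or listed at 0. Of 11 ERBB ligands 3 were expressed, and EGF, EPGN, NRG1 and NRG3 were listed at 0 in both libraries. AREG (amphiregulin), a ligand of EGFR, was the highest, with 23.1 FPKM (interval 21.3 to 24.8) in EV and 27.0 (interval 25.1 to 28.8) in PRSS35 cells, so that it lay above EGFR itself in both. The AREG values are sums over 2 rows of that name in each library. EREG (epiregulin) went the other way, from 2.97 (interval 2.68 to 3.27) to 2.21 FPKM (interval 1.94 to 2.48), a ratio of 0.743 with intervals apart, which became 1.22 after division by the summed FPKM of all loci. HBEGF had 1.21 and 1.36 FPKM with overlapping intervals. The neuregulins, of which NRG1 and NRG2 bind ERBB3, reached at most 0.270 FPKM (NRG2 in PRSS35 cells).

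Of 22 FGF ligands, 12 were listed at 0 in both libraries and 2 were expressed. FGF22 had 1.59 FPKM in EV and 1.58 in PRSS35 cells. The value of FGF11, 38.5 and 40.7 FPKM, is that of a locus joined with TMEM102 and cannot be assigned to either gene, and FGF11 belongs to the intracellular FGFs, which are not secreted. FGF21, the other KLB-dependent hormone that hepatocytes make, is listed at 0 in EV and had 0.210 FPKM (interval 0 to 0.419) in PRSS35 cells. HGF, the ligand of MET, and MST1 are listed at 0. HPN (hepsin), which can activate HGF, had 1.10 and 1.64 FPKM with overlapping intervals, although the interval of its ratio, 1.04 to 2.14, leaves out 1. SPINT2, an inhibitor of such proteases, had 249 FPKM (interval 238 to 261) in EV, at a locus joined with C19orf33, and 301 (interval 287 to 314) in PRSS35 cells.

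Of the related receptors, ERBB4 and the co-receptor KL were listed at 0 and MST1R was under 1 FPKM. FGFRL1, an FGF receptor without a kinase, was the exception. It had 49.0 FPKM (interval 46.8 to 51.2) in EV and 39.0 (interval 37.2 to 40.7) in PRSS35 cells, a ratio of 0.795 (interval 0.747 to 0.846), opposite in direction to FGFR3 and FGFR4 except after division by the summed FPKM of all loci, where it was 1.30. Free of that scaling, the ratio of FGFRL1 was 0.684 times that of FGFR4 (interval 0.633 to 0.740). FGFRL1 thus stood 1.69 times as high as FGFR3 in EV and 1.10 times in PRSS35 cells. The bounds of FGFRL1 imply about 2018 fragments in EV and 1988 in PRSS35 cells, nearly alike although the FPKM differed. Its locus was assembled separately in each library, and the part of assembly in this difference was not tested.

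Around the receptors 114 further genes were listed in all, ligands and neighbours of FGF19 included, of which 61 were expressed. None differed by 2-fold on the log2(FPKM + 1) scale, although the plain ratio of ETV5 was 0.475. Their median log2 change was 0.08 against 0.06 for all expressed genes, and intervals were apart upwards for 16 (26.2%) and downwards for 5 (8.20%), against 25.2% and 15.5% of expressed genes.

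Among the adaptors, 8 of 12 were expressed. GRB2, which links phosphorylated receptors to RAS, had 46.1 FPKM (interval 43.7 to 48.4) in EV and 66.8 (interval 63.6 to 70.1) in PRSS35 cells, a ratio of 1.45, and SHC1, at a locus joined with PYGO2, had 95.3 and 107 FPKM with intervals apart. The other 6 overlapped, and FRS2, the docking protein of FGF receptors, was under 1 FPKM in both libraries. In the RAS-RAF-MEK-ERK chain, the kinases BRAF (1.73 and 2.66 FPKM) and MAP2K1 (19.9 and 28.6 FPKM) were higher in PRSS35 cells with intervals apart, and ARAF was lower (65.3 and 57.7 FPKM, a ratio of 0.883, or 1.44 after division by the summed FPKM of all loci). MAP2K2, the most abundant gene of the chain, had 397 and 378 FPKM with overlapping intervals. In the PI3K-AKT branch, AKT1 (126 and 138 FPKM) and PDPK1 (4.47 and 5.51 FPKM) were higher with intervals apart and the other 5 expressed genes overlapped. AKT2, at 136 and 125 FPKM, has no usable interval in PRSS35 cells, where its deposited bounds run from 0 to 38914.

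Genes that ERK switches on read out the activity of these receptors in many cells. Of 18 listed, 14 were expressed, with a median log2 change of 0.07. SPRY1, a feedback inhibitor, had 2.78 FPKM (interval 2.31 to 3.26) in EV and 4.89 (interval 4.10 to 5.68) in PRSS35 cells, the largest upward difference of the list at log2 0.64. The bounds of SPRY1 imply about 138 fragments in EV and 153 in PRSS35 cells, a smaller difference than that in FPKM. ETV5, an ETS factor, had the largest downward difference, with 10.3 FPKM (interval 8.30 to 12.4) in EV against 4.91 (interval 4.47 to 5.35) with PRSS35, which is -0.94 on the log2 scale and a plain ratio of 0.475 (0.778 after division by the summed FPKM of all loci). Its EV bounds imply about 103 fragments and those in PRSS35 cells about 498, although the FPKM was higher in EV, so the EV value is the less certain. ETV4, its close relative, was high and also lower in PRSS35 cells, with 262 FPKM (interval 254 to 270) in EV and 215 (interval 208 to 221), but its ratio of 0.819 became 1.34 after the same division. SPRY4, IER3 (a sum over 6 rows, with a locus joined with FLOT1) and MYC were higher with intervals apart, with ratios of 1.22, 1.10 and 1.19. SPRY4 and MYC were assembled in PRSS35 cells only, a class in which 37.9% of genes were separated upwards. The bounds of MYC imply about 2190 fragments in EV and 1223 in PRSS35 cells, although its FPKM was higher in PRSS35 cells. For 8 of the 14, among them DUSP6 (5.02 and 5.62 FPKM), DUSP5, EGR1 and CCND1, the intervals overlapped. The list thus held 4 of 14 expressed genes apart upwards and 2 downwards. This is near the shares over all expressed genes, 25.2% and 15.5%. The receptor inhibitor ERRFI1 had 7.15 and 7.33 FPKM with overlapping intervals, and the intervals of CBL and of SOCS3 also overlapped. For SOCS3 the interval of the ratio, 1.07 to 1.52, nevertheless leaves out 1. The phosphatase PTPN1 had 26.8 and 35.5 FPKM with intervals apart. LRIG1 is listed at 0. CBLB, a ubiquitin ligase whose mean was under 1 FPKM, had 1.27 FPKM (interval 0.991 to 1.56) in EV and 0.600 (interval 0.455 to 0.746) in PRSS35 cells. CBLB was assembled in EV only, and its bounds imply about 81 fragments in EV and 68 in PRSS35 cells. Of expressed genes assembled in EV only, 20.4% were separated downwards, against 18.6% of those assembled in both. The sheddases ADAM10 and ADAM17 were near 3 FPKM in both libraries with overlapping intervals.

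**Figure D4:**
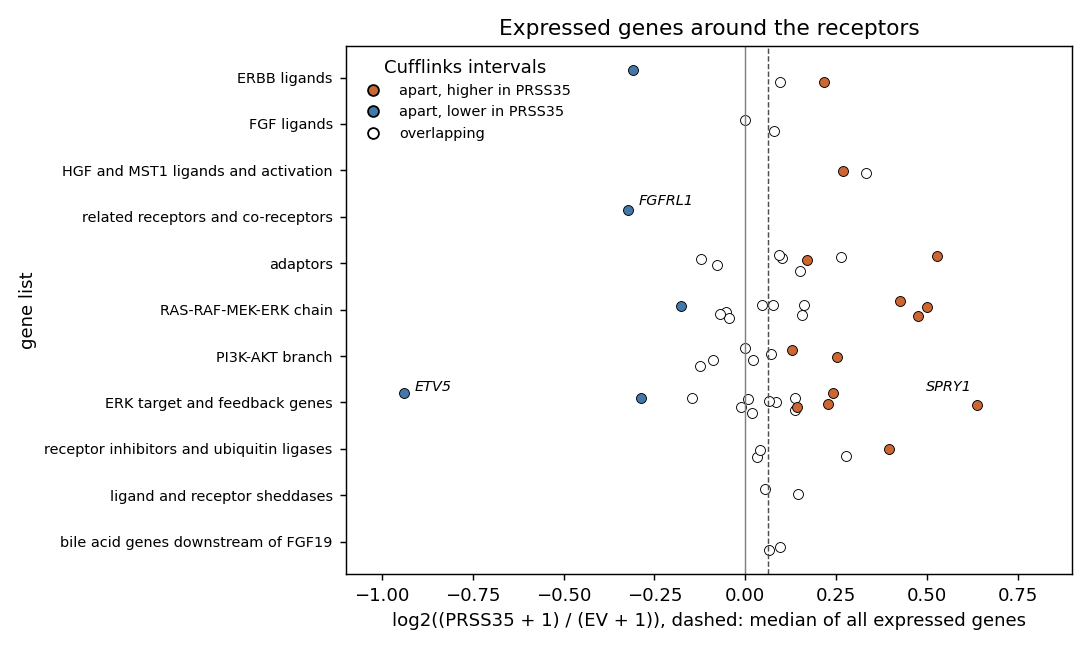
Log2 change (x axis, pseudocount of 1 FPKM) of each expressed gene of the lists named on the y axis, 1 point per gene, filled where the Cufflinks intervals of the libraries were apart and open where they overlapped; vertical spread within a row carries no meaning. Most points lie near the dashed median of all expressed genes, with ETV5 farthest to the left at -0.94 and SPRY1 farthest to the right at 0.64.

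Several genes of bile acid synthesis, sensing and transport were listed at 0, which is not evidence that they were silent. CYP7A1 and CYP8B1, which make bile acids, and NR1H4, the bile acid receptor, are listed at 0 in both libraries, as are ABCB11 and SLC51A, so no repression of CYP7A1 can be read out here. NR0B2, a repressor of CYP7A1, had 16.8 FPKM (interval 15.1 to 18.4) in EV and 17.6 (interval 15.9 to 19.2) in PRSS35 cells, and SLC51B had 27.1 and 29.0 FPKM, both with overlapping intervals. The neighbours of FGF19 on chromosome 11 were not uniformly low. Of 10 genes of that region, FGF19 included, 6 were expressed: CCND1, the cyclin that drives entry into S phase, had 45.2 FPKM (interval 43.0 to 47.4) in EV and 45.8 (interval 43.5 to 48.0) in PRSS35 cells, and ORAOV1, between CCND1 and FGF19, had 7.11 and 6.86 FPKM. FGF3 and FGF4, on the other side of FGF19, are listed at 0. FADD (71.0 and 78.0 FPKM) and CTTN (42.5 and 47.8 FPKM) had intervals apart, and MYEOV and PPFIA1 overlapped. FADD was assembled in PRSS35 cells only, where its bounds imply about 1452 fragments, against 3520 in EV.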

How the data were processed

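Total RNA of PLC cells was sequenced as NEBNext Ultra libraries on a HiSeq2500 (1 library each for EV and PRSS35). The authors aligned reads to hg19 with TopHat2 (2.1.0 in the submitters' processing notes) and used Cufflinks (the notes name Cuffdiff 2.2.1). The deposited tables hold FPKM per locus with lower and upper bounds. Annotation release, options, read length and use of strand are not given in the sources used here, and the tables give no counts, so no count model was fitted. The implied fragments are (2 FPKM / (upper bound - FPKM)) squared, an interval width and not a count.

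FPKM was summed over rows with the same name, and a row with joined names was counted for each of its names. FPKM was compared between libraries as log2 with a pseudocount of 1, calls were 2-fold among genes whose mean FPKM was 1 or more, and intervals were called apart when they did not touch. The members and gene lists were chosen with earlier results of these data known. Of each list, genes with intervals apart, the highest gene, those with the largest changes and some others were named, the last chosen after their values were seen. Some listed genes that count in the totals are not reported here by name. Functions were tested on simulated data. Positions and transcripts come from GENCODE v44lift37 on GRCh37, which is hg19, and all 10 deposited loci overlap them. Python 3.11.15, numpy 2.4.6, pandas 2.3.3 and matplotlib 3.10.9 were used.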

Additional observations from a re-analysis of the deposited data

How the results depend on the processing

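No paired analysis was possible because the groups hold 1 library each, and for the same reason no replicate could be left out. The count of members called at 2-fold was 0 under the other pseudocounts, filters, thresholds and scalings tried, except after division by the summed FPKM of all loci, where it was 1 (ERBB3, log2 1.09). That scaling took the median log2 change over expressed genes from 0.06 to 0.67, since the summed FPKM was 2469030 in EV and 1508529 in PRSS35 cells but 856880 and 831520 over named loci. With it the median of the 8 expressed members was 0.82, all 8 had intervals apart, as had 86.9% of expressed genes in the same direction, 5 further pathway genes were called higher (among them GRB2, MAP2K1, PTPN1 and SPRY1), and 1238 genes in all were called higher and 184 lower. Dividing PRSS35 values by the median ratio, and using only genes with the same kind of locus, were added after seeing the data: 4 and 3 members had intervals apart, the latter without ERBB3. ETV5 alone was called lower (1 gene) with a pseudocount of 0.1 FPKM, with centring and at 1.5-fold, where SPRY1 was the 1 gene called higher. Over all expressed genes, 303 were called higher and 276 lower. These became 192 and 162 with a pseudocount of 5 FPKM, 581 and 475 at 1.5-fold, 187 and 187 without joined names, 202 and 169 with a mean FPKM of at least 5, 206 and 177 with the same kind of locus, and 201 and 163 among genes above 0 in both libraries (added after seeing the data). A pseudocount of 0.1 FPKM took the log2 changes of FGFR2 and FGF19 from -0.02 and -0.09 to -0.17 and -0.42. Depth limits FGF19, FGFR2 and MET most.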
